A study of Mus musculus with 62 samples.

Results

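The genes described here encode the phosphatase calcineurin (Ppp3ca, Ppp3cb and Ppp3r1), its Rcan regulators (Rcan1, Rcan2 and Rcan3) and the 4 NFAT transcription factors that it controls (Nfatc1, Nfatc2, Nfatc3 and Nfatc4). They were chosen by mouse gene symbol, by a rule that used no measured values, though earlier results of these data were known. All 10 were found among the 27179 genes counted in both the embryonic and the adult tissue. Of these 10 genes, only Rcan1 lies in the segments that the Ts65Dn mouse carries in an extra copy. The comparisons therefore ask how an extra copy of one inhibitor gene appears in RNA beside its untriplicated partners.

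Calcineurin is a phosphatase switched on by calcium and calmodulin, built from a catalytic A subunit and a regulatory B subunit. It removes phosphates from NFAT proteins, which then enter the nucleus and act on transcription, while kinases such as DYRK1A and GSK3B put phosphates back and return NFAT to the cytoplasm. Rcan proteins bind calcineurin and hold back its activity, and an internal start of Rcan1 is itself driven by NFAT, which closes a feedback loop. In neurons calcineurin is abundant and acts at synapses, among others on proteins of vesicle endocytosis, and Rcan1 has long been studied as a chromosome 21 gene in Down syndrome.

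Poly(A) RNA was sequenced from 2 tissues of mice on a mixed DBA/2J x B6EiC3Sn/J background. The embryonic forebrain, taken late in gestation (E17.5), came from 8 euploid and 7 Ts65Dn embryos, whose sex the labels do not give. The title of every embryo also carries a number shared across genotypes, which the main test did not use as a block. The hippocampus at 6 weeks came from 8 euploid, 7 Ts65Dn and 8 Ts65Dn;Brwd1+/- males, and from 8 females of each of these genotypes. Ts65Dn mice carry a freely segregating extra chromosome with the distal part of chromosome 16 and the proximal end of chromosome 17, so the model also triplicates some genes with no counterpart on human chromosome 21. Ts65Dn;Brwd1+/- animals came from Ts65Dn mothers and fathers heterozygous for the repro5 mutation of Brwd1, a gene for a chromatin reader on the same segment, and they keep the extra copy of Rcan1. A Brwd1+/- group without trisomy was not analysed here. The labels number the libraries without naming the animals, and the study's methods state that animals were not pooled in its molecular work, so p-values measure the spread between these libraries. The tissue was bulk, so more cells of a type and more RNA per cell cannot be told apart.

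Libraries held 14.9 to 62.6 M counted reads at E17.5 and 33.6 to 137.1 M in adults. Brwd1, the gene that the cross targets, was higher in Ts65Dn vs. euploid at E17.5 by 0.56 ± 0.053 (log2, SE), in males by 0.53 ± 0.093 and in females by 0.46 ± 0.106. Its adult medians in euploid, Ts65Dn and Ts65Dn;Brwd1+/- libraries were 106.7, 150.6 and 139.1 CPM (counts scaled to the total of each library) in males and 124.2, 163.3 and 146.6 CPM in females. In Ts65Dn;Brwd1+/- vs. Ts65Dn it differed by -0.25 ± 0.093 in males and -0.25 ± 0.105 in females, neither called by edgeR (adjusted p = 0.626 and 1.0). These adult Brwd1 values include the libraries without trisomic dosage named below. All 5 pan-neuronal and all 5 hippocampal excitatory neuron markers were detected in every group. Markers of choroid plexus epithelium, which lines the ventricles beside the hippocampus, summed to between 38.88 and 6426 CPM across adult libraries. Of the 47 adult libraries, 6 went against their labels, judged on genes other than the 10 described. In 4 libraries labelled trisomic (female Ts65Dn;Brwd1+/- B136, male Ts65Dn B145, and male Ts65Dn;Brwd1+/- B138 and T35) the triplicated genes had a median ratio to the euploid mean of 0 to 0.039 on the log2 scale, against 0.51 to 0.628 in the other trisomic adult libraries. The libraries labelled male Ts65Dn B88 and female euploid B85 carried the sex-linked expression of the other sex. All libraries were kept under their labels, and some results, though not those for Brwd1, are also given without these 6.

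Rcan1 (Entrez gene 54720) lies on the minus strand of chromosome 16 at chr16:92391951-92466169 (GRCm38). Its transcripts begin at a distal start, which gives the long form, or at an internal start, which gives the short form that NFAT induces. The 250 bases upstream of each start, from RefSeq on GRCm38.p6 and written along the strand of the gene, are shown because this control region is where the calcineurin pathway feeds back on its inhibitor. Capitals mark the core bound by NFAT, GGAAA, or TTTCC where the core lies on the other strand. The distal window spans chr16:92466170-92466419 and the internal window chr16:92400079-92400328.
Rcan1 distal start: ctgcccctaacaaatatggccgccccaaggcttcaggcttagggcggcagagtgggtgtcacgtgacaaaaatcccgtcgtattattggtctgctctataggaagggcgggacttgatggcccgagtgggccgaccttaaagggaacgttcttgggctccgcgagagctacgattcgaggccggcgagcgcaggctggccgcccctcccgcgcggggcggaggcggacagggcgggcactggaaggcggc
Rcan1 internal start: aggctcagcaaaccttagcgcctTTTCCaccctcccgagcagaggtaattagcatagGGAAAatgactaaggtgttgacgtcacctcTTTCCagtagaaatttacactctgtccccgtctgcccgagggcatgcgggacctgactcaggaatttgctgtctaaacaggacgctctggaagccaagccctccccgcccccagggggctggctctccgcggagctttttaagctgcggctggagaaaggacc
The internal window held 3 of these cores, the nearest 163 bases before the start and the farthest 227, and the distal window held 0. Among 32851 RefSeq starts of mouse genes, 55.6% held at least 1 core in a window of this length, and 6.39% held 3 or more. Of the other 9 genes 7 had starts in the table. Ppp3cb and Nfatc4 held 3 cores at their listed start, Nfatc2 held 3 and 1 at its starts, Rcan2 held 2 at its first start and 0 at the others, Rcan3 held 1, Nfatc3 held 1 and 0, and Ppp3r1 held 0. A match in these letters is a description and no evidence of binding. Reads were counted per gene, so the values below sum both Rcan1 forms.

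Among the 10 genes the calcineurin subunits had the highest levels per transcript length in adult hippocampus and the NFAT genes the lowest. In euploid males the median RPKM (reads scaled for sequencing depth and gene length) was 318.1 for Ppp3r1, the regulatory B subunit, 145.7 for Ppp3ca, the main catalytic subunit of brain, and 45.76 for Ppp3cb, a second catalytic subunit. The Rcan genes followed at 27.33 for Rcan2, 18.48 for Rcan1 and 6.381 for Rcan3. Then came Nfatc2 at 2.154, Nfatc3 at 1.324, Nfatc1 at 1.24 and Nfatc4 at 0.3622 RPKM. Neighbours in this order had ranges that did not overlap, except Nfatc3 and Nfatc1. The order was the same in euploid females, where Rcan2 (21.44 to 31.97 RPKM) also overlapped Rcan1 (16.31 to 22.49).

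In euploid forebrain at E17.5, Ppp3r1 again had the highest RPKM (median 72.84), followed by Ppp3cb at 39.41, Rcan1 at 33.65, Rcan2 at 23.17, Ppp3ca at 21.92 and Rcan3 at 18.65. Each of the genes from Ppp3cb to Rcan3 overlapped the next in range. Ppp3cb (35.71 to 43.24) lay wholly above Rcan2, Ppp3ca and Rcan3, and Rcan1 (28.84 to 39.04) above Ppp3ca and Rcan3. Nfatc4 (median 2.993) and Nfatc3 (2.191) overlapped each other and lay above Nfatc1 (0.714) and Nfatc2 (0.6886), which also overlapped. Set beside the adult hippocampus, Ppp3ca, Ppp3r1 and Nfatc2 were lower in the embryonic forebrain, and Rcan1, Rcan3, Nfatc3 and Nfatc4 were higher. Age, tissue and sequencing run cannot be told apart here, so no test was made.

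**Figure D1:**
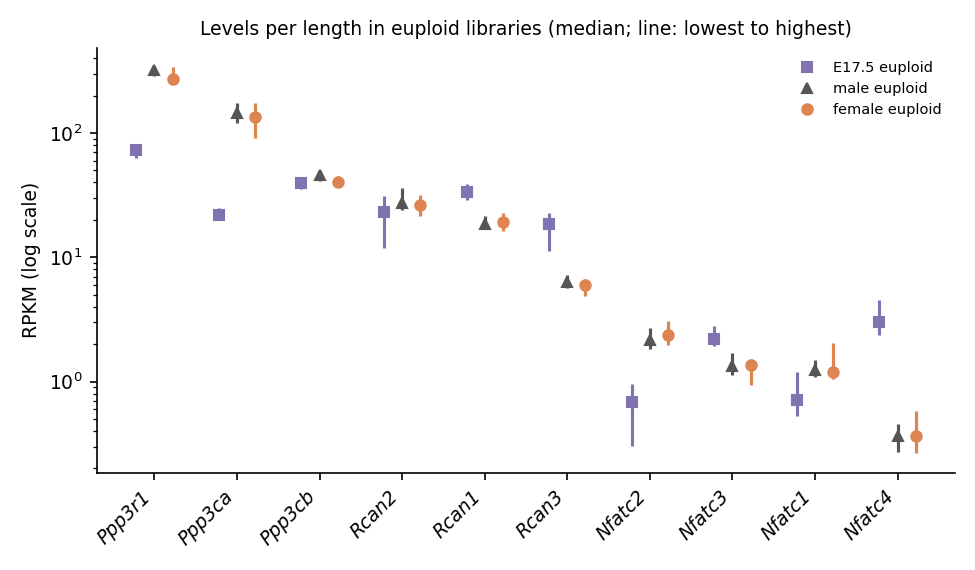
Levels of the 10 genes in euploid libraries, as RPKM on a log axis. Points are group medians and lines run from the lowest to the highest library of E17.5 forebrain (n = 8), male hippocampus (n = 8) and female hippocampus (n = 8); the 3 calcineurin subunits lie at the top in hippocampus, and the NFAT genes lie at the bottom in all 3 groups.

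Rcan1 was higher in Ts65Dn than in euploid tissue in all 3 comparisons. At E17.5 the euploid libraries ran from 88.96 CPM over a median of 103.8 to 120.4, and the Ts65Dn libraries from 144.5 over 172.5 to 186.2. All 7 Ts65Dn embryos lay above all 8 euploid embryos. Groups without overlap, in either direction, were found for 84 of 16395 genes (0.512%), and 57 of these 84 are triplicated. The Rcan1 difference was 0.69 ± 0.072 (log2, SE, 95% interval 0.54 to 0.84), a fold change of 1.61, with an edgeR adjusted p of 3.05e-05. In this comparison Rcan1 was the only one of the 10 genes that edgeR called at an adjusted p under 0.1, a threshold that 1.35% of 16395 tested genes passed.

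In male hippocampus Rcan1 ran from 54.37 over 57.01 to 66.26 CPM in euploid and from 64.55 over 90.05 to 93.67 CPM in Ts65Dn libraries. Of the 7 Ts65Dn libraries 6 lay above every euploid library, and the lowest was B145, the library without trisomic dosage. The difference was 0.55 ± 0.097 (log2, SE, 95% interval 0.35 to 0.76, edgeR adjusted p = 0.00984), and without the libraries at odds it was 0.63 ± 0.048. The only gene that edgeR called among the 10 was again Rcan1, where 0.795% of 16851 genes were called.

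In female hippocampus Rcan1 ran from 50.33 over 59.09 to 69.38 CPM in euploid and from 84 over 92.18 to 98.33 CPM in Ts65Dn libraries. All 8 Ts65Dn libraries lay above all 8 euploid libraries. Groups without overlap, in either direction, were found for 91 of 17427 genes (0.522%), and 47 of these 91 are triplicated. The Rcan1 difference was 0.63 ± 0.087 (log2, SE, 95% interval 0.45 to 0.81, edgeR adjusted p = 0.000134). Rcan1 was the 1 gene of the 10 called, beside 3.17% of 17146 genes. Male and female Ts65Dn differences did not differ detectably (interaction 0.08 ± 0.133, 95% interval -0.19 to 0.35, edgeR adjusted p = 0.887), and edgeR called none of the 10 genes and 0% of all genes for this interaction, with 11.1% of genes but none of the 10 at an unadjusted p under 0.05. Rcan1 also did not differ detectably between female and male euploid animals (difference -0.0024, 95% interval -0.15 to 0.15). Between Ts65Dn females and males it differed by 0.071 (95% interval -0.07 to 0.21), where edgeR called 0.00598% of all genes and none of the 10, and 4.38% and none had an unadjusted p under 0.05.

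**Figure D2:**
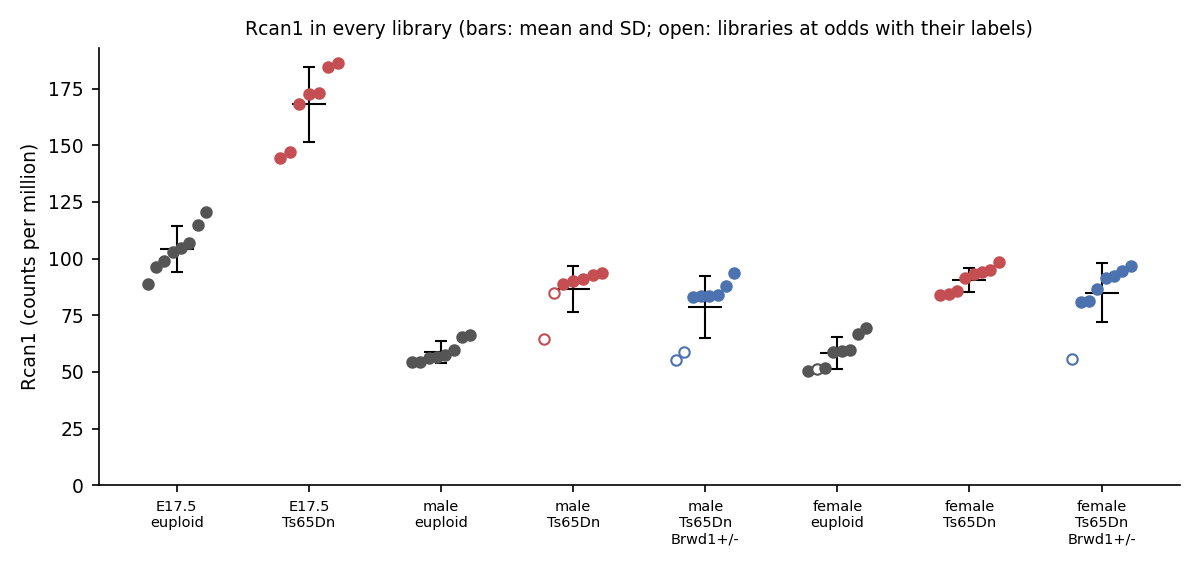
Rcan1 in every library, as CPM by genotype for E17.5 forebrain and male and female hippocampus, on an axis that starts at 0. Bars are means with SD, filled points are libraries and open points are the libraries at odds with their labels; at E17.5 and in females the Ts65Dn libraries lie above every euploid library.

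The rise of Rcan1 was set against that of the other triplicated genes. At E17.5 the tested genes of the segments had a median difference of 0.56 (log2), and Rcan1 ranked 35 from the top, above 98 of them. In adult males the median was 0.50 and Rcan1 ranked 43, above 90 of them, and in adult females the median was 0.53 and it ranked 39, above 95. Measured in each library as the Rcan1 log2 ratio minus the median ratio of the other triplicated genes, the excess in Ts65Dn vs. euploid was 0.12 at E17.5, 0.07 in males and 0.09 in females. None of these passed a 2-sided exact permutation test (p = 0.159, 0.2005 and 0.247; adjusted over 5 tests, p = 0.309 for each).

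**Figure D3:**
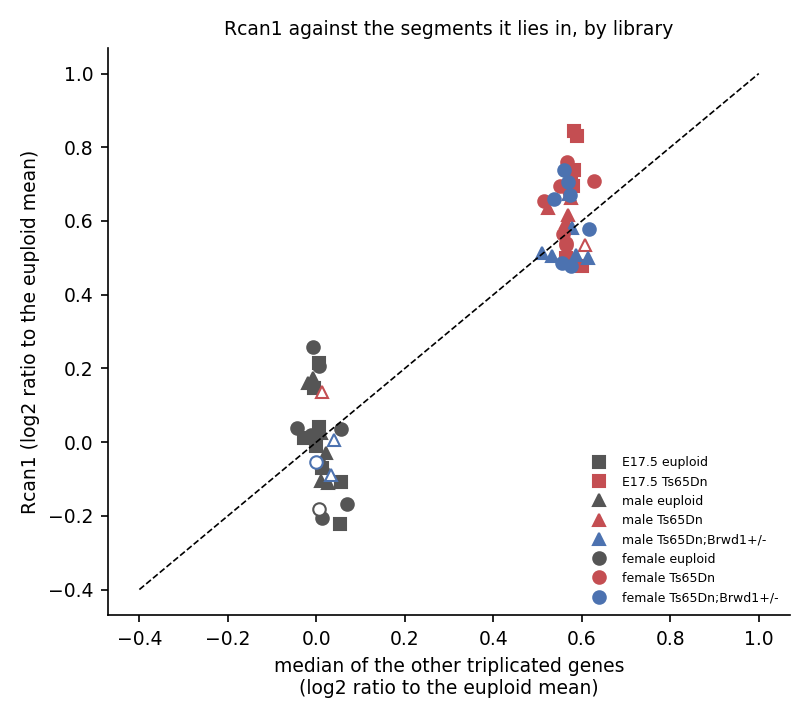
Log2 ratio of Rcan1 in each library to its euploid mean (vertical) against the median log2 ratio of the other triplicated genes (horizontal). Squares are embryos, triangles males and circles females, and the dashed line marks equal values; 4 adult libraries labelled trisomic sit with the euploid libraries near 0.

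The 5 tested genes on each side of Rcan1 on chromosome 16 all had a positive difference in these 3 comparisons with all libraries, and fewer passed the threshold. Without the libraries at odds, Clic6 (-0.48) and Kcne2 (-0.43) were negative in males. At E17.5, 4 of these 10 neighbours were called higher, Mrps6 (0.75 ± 0.054, log2, SE), Cbr1 (0.60 ± 0.060), Setd4 (0.49 ± 0.092) and Slc5a3 (0.47 ± 0.118, lost when any 1 of 10 of the 15 libraries was left out). In males 4 were called higher, Smim11 (0.63 ± 0.118), Setd4 (0.61 ± 0.157), Cbr3 (0.56 ± 0.119) and Cbr1 (0.47 ± 0.112). The male calls of Setd4 and Cbr1 were lost when any 1 of 10 and of 8 of the 15 libraries was left out. Both were kept without the libraries at odds (Setd4 0.70, edgeR adjusted p = 0.0394, and Cbr1 0.55, adjusted p = 2.88e-08). In females the 4 called were Mrps6 (0.70 ± 0.184), Cbr3 (0.68 ± 0.117), Cbr1 (0.56 ± 0.107) and Slc5a3 (0.48 ± 0.111). Clic6, the nearest of them on the side of the distal start, and Kcne2, on the other side, are known from choroid plexus and were not called in any of these comparisons. Their E17.5 differences were 1.31 ± 0.390 for Kcne2 and 1.18 ± 0.320 for Clic6, where summed choroid plexus markers had a median of 898.6 CPM in euploid and 1244 CPM in Ts65Dn embryos. The part of the choroid plexus in these values was not tested.

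Brwd1 copy number restoration was tested by comparing Ts65Dn;Brwd1+/- with Ts65Dn hippocampus. Male Ts65Dn;Brwd1+/- libraries ran from 55.13 over 83.41 to 93.69 CPM of Rcan1 and female ones from 55.89 over 89.13 to 96.72. The lowest values came from libraries without trisomic dosage, T35 in males and B136 in females. The difference from Ts65Dn was -0.14 ± 0.097 (log2, SE, 95% interval -0.34 to 0.06, edgeR adjusted p = 0.772) in males and -0.09 ± 0.087 (95% interval -0.27 to 0.09, edgeR adjusted p = 1.0) in females. Without the libraries at odds these values were -0.09 and -0.03. In males, 5 of the 6 remaining Ts65Dn;Brwd1+/- libraries then lay below all 5 remaining Ts65Dn libraries and 1 lay above them. Complete separation, a stricter pattern that Rcan1 did not show, held for 1.02% of genes. The share of genes with a split like that of Rcan1 was not counted.

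With all libraries, edgeR called none of the 10 genes in either comparison with Ts65Dn. Among all genes edgeR called 0, which is 0% of those tested, while 1261 in males (7.48%) and 604 in females (3.52%) had an unadjusted p under 0.05, and DESeq2 called 1 (0.00593%) and 14 (0.0817%), none of the 10 among them. None of the 10 genes reached an unadjusted p under 0.05 here, nor in the interaction of this contrast with sex (Rcan1 0.05, 95% interval -0.22 to 0.31), where 3.73% of all genes did. Relative to the other triplicated genes, Rcan1 in Ts65Dn;Brwd1+/- vs. Ts65Dn was -0.09 in males (2-sided exact permutation test, p = 0.0267, adjusted p = 0.134) and -0.04 in females (p = 0.369, adjusted p = 0.369). The male value passed the threshold when Ts65Dn library B88 was left out (-0.12, adjusted p = 0.0233) or Ts65Dn;Brwd1+/- library B94 (-0.11, adjusted p = 0.0379), both by the exact permutation test.

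Against euploid animals, Rcan1 stayed higher in Ts65Dn;Brwd1+/- hippocampus. In males the difference was 0.42 ± 0.094 (log2, SE, edgeR adjusted p = 0.0581), with 6 of 8 libraries above every euploid library. In females it was 0.54 ± 0.087 (edgeR adjusted p = 0.00141), with 7 of 8 above. Both libraries below in males and the 1 in females were those without trisomic dosage, and without the libraries at odds the differences were 0.54 and 0.58. Rcan1 was the only gene of the 10 that edgeR called, against 0.576% of all genes in males and 0.729% in females. The male call was lost when any 1 of 8 libraries was left out (euploid B79, B110 or B139, or Ts65Dn;Brwd1+/- B26, B51, B69, B94 or B137), with differences of 0.38 to 0.48 over all 16 libraries left out in turn. These comparisons share the euploid libraries with those of Ts65Dn.

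The other 2 inhibitors, Rcan2 and Rcan3, lie outside the triplicated segments and were not called by edgeR in any comparison. Rcan2 (Entrez gene 53901) is on chromosome 17 at chr17:43801352-44039516, beyond the triplicated end of that chromosome. At E17.5 it ran from 51.68 to 136.3 CPM in euploid embryos (mean 97.2 ± 27.3, SD, n = 8) and from 83 to 171.7 CPM in Ts65Dn embryos (132.0 ± 33.6, n = 7). The groups overlapped, although 4 of 7 Ts65Dn embryos lay above every euploid embryo. By edgeR the difference was 0.44 ± 0.196 (log2, SE, 95% interval 0.02 to 0.86, unadjusted p = 0.0393, edgeR adjusted p = 0.389). DESeq2 with 1 and 3 factors of unwanted variation estimated from residuals (RUVr) called it (0.46 in both, adjusted p = 0.00363 and 7.88e-06), settings under which 13.5% and 24.8% of all genes were called. In adult Ts65Dn vs. euploid hippocampus it differed by 0.09 ± 0.075 in males and 0.11 ± 0.088 in females.

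Rcan3 (Entrez gene 53902, chr4:135412308-135433871) overlaps the microRNA gene Mir700, from which unstranded reads cannot be told apart. Its differences in Ts65Dn vs. euploid were 0.19 ± 0.127 (log2, SE) at E17.5, -0.09 ± 0.065 in males and 0.00 ± 0.094 in females. The same 2 RUVr settings called the E17.5 difference (0.20 in both, DESeq2 adjusted p = 0.071 and 0.00222). Adult medians stayed between 27.61 CPM in female Ts65Dn;Brwd1+/- and 32.61 CPM in male euploid libraries, and the groups overlapped in each comparison.

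With all libraries, the main edgeR test called the 3 calcineurin subunit genes in no comparison either. Ppp3ca (Entrez gene 19055, chr3:136669714-136937727) had a median of 1455 CPM in male euploid, 1529 in male Ts65Dn and 1359 in male Ts65Dn;Brwd1+/- libraries. The female medians were 1342, 1360 and 1192 CPM in the same order. All these groups overlapped. Among the genotype comparisons, the value nearest to the threshold was Ts65Dn;Brwd1+/- vs. Ts65Dn in males, at -0.19 ± 0.099 (log2, SE, 95% interval -0.40 to 0.01, edgeR adjusted p = 0.671). DESeq2 with 1 or 3 RUVr factors called it (-0.17 in both, adjusted p = 0.0148 and 0.00206), settings under which 2.85% and 5.89% of all genes were called. Between Ts65Dn females and males Ppp3ca differed by -0.21, not called by edgeR. DESeq2 with 3 RUVr factors called that difference (-0.19, adjusted p = 0.000147), beside 3.84% of all genes.

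Ppp3cb (Entrez gene 19056, chr14:20499364-20546573) shares bases with the noncoding gene 1810062O18Rik. In females it ran from 329 over 355.9 to 393.7 CPM in euploid and from 358.9 over 389.8 to 441.2 CPM in Ts65Dn libraries. These groups overlapped with 3 of 8 Ts65Dn libraries above every euploid one, and the difference of 0.12 ± 0.047 (log2, SE) had an edgeR adjusted p of 0.206. DESeq2 with 1 and 3 RUVr factors called it (0.13 in both, adjusted p = 0.0213 and 0.00678), beside 16.6% and 25.5% of all genes. In males it was 0.07 ± 0.046 and at E17.5 -0.01 ± 0.059. Between euploid females and males the difference was -0.15 ± 0.048, with an edgeR adjusted p of 0.12, where 3.71% of all genes were called between the sexes and 0 of the 10 genes. DESeq2 called that difference (-0.16, adjusted p = 0.0297), beside 8.45% of all genes. With 1 and 3 RUVr factors it was called too (-0.16 in both, DESeq2 adjusted p = 0.00254 and 0.00117), beside 20.3% and 27.5%. Upper-quartile normalization (-0.15, edgeR adjusted p = 0.0904) and leaving out female euploid B125 (-0.13, edgeR adjusted p = 0.0702) also gave a call. The shares of all genes under those last settings are not given here. Ppp3cb and Ppp3r1 were the 2 of the 10 genes with an unadjusted p under 0.05 between the sexes, against 16.8% of all genes.

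Ppp3r1 (Entrez gene 19058, chr11:17159298-17200380) showed small differences between genotypes. Its differences in Ts65Dn vs. euploid were 0.12 ± 0.065 (log2, SE) at E17.5, 0.05 ± 0.058 in males and 0.09 ± 0.063 in females, and each 95% interval included 0. The widest of them reached from -0.01 to 0.26, at E17.5. DESeq2 with 3 RUVr factors called the E17.5 difference (0.13, adjusted p = 0.0689), beside 24.8% of all genes. Between euploid females and males 1 and 3 factors gave a call (-0.16 in both, DESeq2 adjusted p = 0.0377 and 0.0153), beside 20.3% and 27.5%. Between Ts65Dn females and males 3 factors did (-0.10, DESeq2 adjusted p = 0.0772), beside 3.84%.

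**Figure D4:**
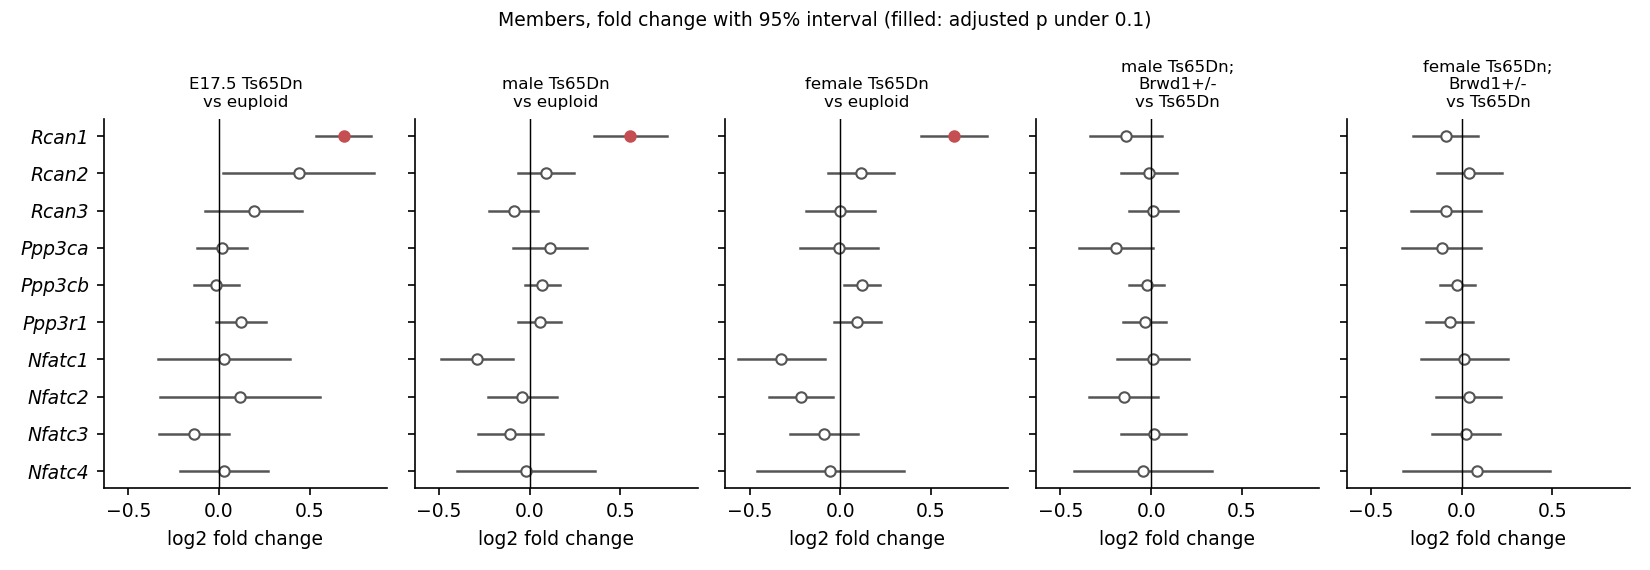
Log2 fold change of the 10 genes in 5 comparisons, with 95% intervals; filled points have an edgeR adjusted p under 0.1. The filled points are Rcan1 in Ts65Dn vs. euploid at E17.5 and in both adult sexes, while the other 9 genes have open points throughout.

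Over the 9 untriplicated genes, the median difference in Ts65Dn vs. euploid was 0.03 (log2) at E17.5, -0.02 in males and -0.01 in females, beside medians over all tested genes of -0.01, 0.00 and -0.02. An unadjusted p under 0.05 was reached by 1 of 9 at E17.5 (Rcan2), by 1 in males (Nfatc1) and by 3 in females (Nfatc1, Nfatc2 and Ppp3cb). Among all genes the shares at that level were 12.1%, 8.91% and 15.4%. In Ts65Dn;Brwd1+/- vs. euploid, Nfatc1 and Nfatc2 reached it in both sexes, where 10.1% of all genes did in males and 11.2% in females.

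Nfatc1 (Entrez gene 18018), which is known outside the brain for its part in heart valve and bone-resorbing cells, had the largest difference of the 4 NFAT genes in adult Ts65Dn vs. euploid hippocampus with all libraries. Without the libraries at odds, that of Nfatc2 (-0.22) was larger in females. In males it ran from 8.126 over 9.26 to 11.12 CPM in euploid, from 5.879 over 7.652 to 10.58 in Ts65Dn and from 7.373 over 7.526 to 8.519 in Ts65Dn;Brwd1+/- libraries. Of the Ts65Dn libraries 5 of 7 lay below every euploid library, and the highest was B88, one of the libraries with the sex-linked expression of the other sex. The difference was -0.29 ± 0.096 (log2, SE, 95% interval -0.49 to -0.09, edgeR adjusted p = 0.285) for Ts65Dn vs. euploid and -0.28 ± 0.093 (adjusted p = 0.257) for Ts65Dn;Brwd1+/- vs. euploid. Without the libraries at odds these values were -0.37 (edgeR adjusted p = 0.0395) and -0.33 (adjusted p = 0.0537), both called, beside 1.54% and 1.83% of all genes. Leaving out B88 alone was enough for the first call (-0.39, edgeR adjusted p = 0.0287). DESeq2 with 1 and 3 RUVr factors called the first difference with all libraries (adjusted p = 0.0298 and 0.000657), beside 3.57% and 7.1% of all genes. They also called the second (DESeq2 adjusted p = 0.0416 and 0.00272), beside 4.17% and 7.85%.

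In females Nfatc1 ran from 7.826 over 8.88 to 15.23 CPM in euploid, from 6.215 over 7.866 to 9.352 in Ts65Dn and from 6.729 over 7.363 to 9.534 in Ts65Dn;Brwd1+/- libraries. The highest euploid value was B85, the other library at odds in its sex-linked expression, and 4 of 8 Ts65Dn libraries lay below every euploid library. The difference in Ts65Dn vs. euploid was -0.33 ± 0.116 (log2, SE, edgeR adjusted p = 0.159), and without the libraries at odds it was -0.19 ± 0.089 (adjusted p = 0.358). Without those libraries Rcan1 was again the 1 gene of the 10 called in female Ts65Dn and Ts65Dn;Brwd1+/- vs. euploid, beside 1.9% and 0.81% of all genes. A fit over all 6 adult groups called Nfatc1 in female Ts65Dn vs. euploid (-0.32, edgeR adjusted p = 0.0773), beside 6.95% of all genes. DESeq2 with 1 and 3 RUVr factors called it there too (adjusted p = 0.0661 and 0.0308), beside 16.6% and 25.5%. In female Ts65Dn;Brwd1+/- vs. euploid the difference was -0.31, not called by edgeR. The same RUVr settings called it (DESeq2 adjusted p = 0.079 and 0.0383), beside 12.5% and 20.9%. Ts65Dn;Brwd1+/- differed from Ts65Dn by 0.01 in each sex, with 95% intervals from -0.19 to 0.21 in males and from -0.23 to 0.26 in females. At E17.5 the difference was 0.03 ± 0.173.

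Nfatc1 varied together with markers of blood vessels between libraries of one group. With group means removed, its log2 CPM over 47 adult libraries correlated with the mean of 7 endothelial genes at r = 0.47 (rho = 0.47, permutation within groups, p = 0.00308 and 0.00157, adjusted p = 0.0172 over 39 relations) and, without the 2 farthest libraries, at r = 0.38. Without the 6 libraries at odds r was 0.70. Levels of the 10 choroid plexus genes fell into low and high libraries, and within these r with Nfatc1 was 0.01 (23 libraries) and 0.37 (24 libraries), given with no test. The cut at a mean log2 CPM of 3 was chosen after seeing the data.

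The endothelial medians differed in direction between the sexes, while the choroid plexus medians were lower in Ts65Dn than in euploid libraries of both sexes, as was Nfatc1. Summed endothelial markers had medians of 183.2 CPM in male euploid, 158.9 in male Ts65Dn and 147.1 in male Ts65Dn;Brwd1+/- libraries. In females the medians were 140.3, 168.7 and 141.3 CPM, higher in Ts65Dn, where Nfatc1 was lower. Summed choroid plexus markers had medians of 1093 CPM in male euploid and 135.3 in male Ts65Dn, and of 2054 in female euploid and 592.4 in female Ts65Dn libraries, with ranges that overlapped widely. In Ts65Dn;Brwd1+/- libraries they were 841.1 CPM in males and 2122 CPM in females. None of the markers was at 0 throughout a group, and the part of these cells in the Nfatc1 values was not tested.

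**Figure D5:**
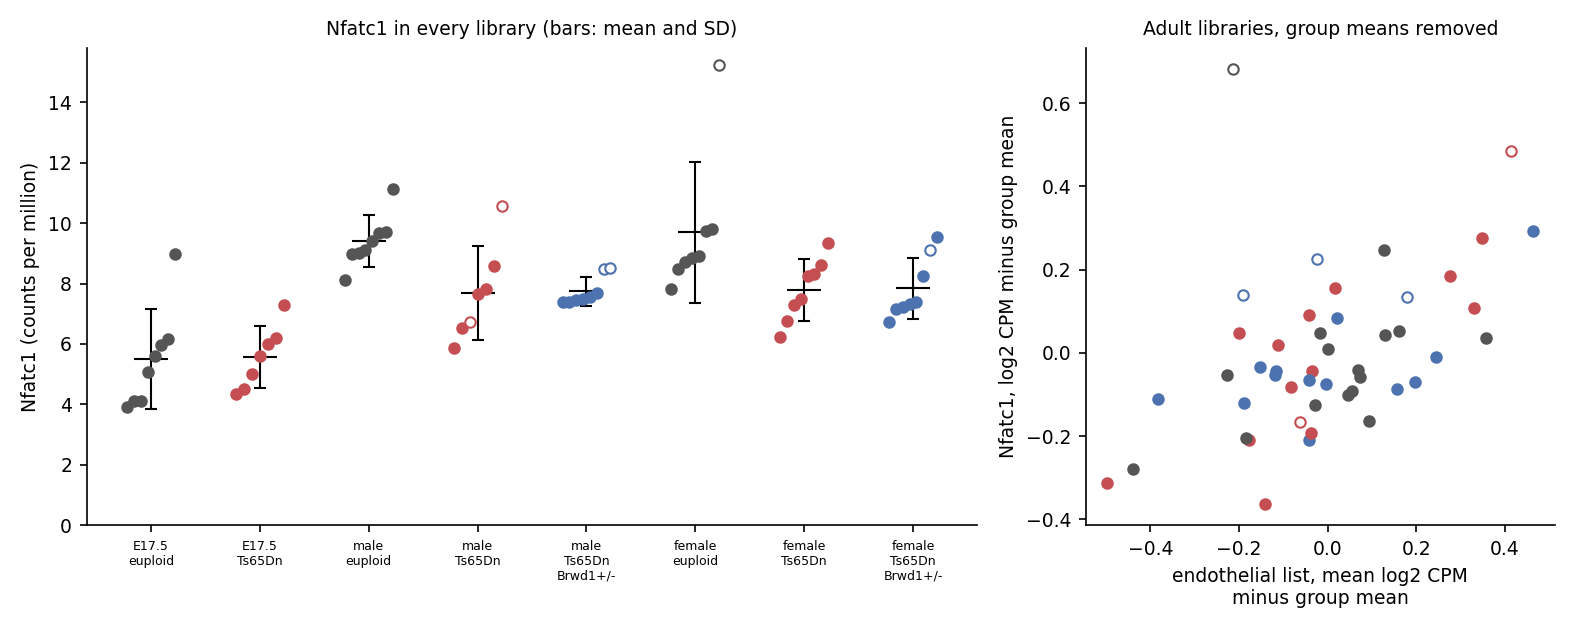
Nfatc1 by group as CPM per library (bars are means with SD, open points are libraries at odds with their labels), and Nfatc1 against the mean of the endothelial markers in adult libraries, both in log2 CPM with group means removed. Libraries with more endothelial RNA had more Nfatc1, at r = 0.47.

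With all libraries, edgeR called the other NFAT genes in no comparison. Nfatc2 (Entrez gene 18019, chr2:168476410-168601657) ran from 20.68 over 24.89 to 32.42 CPM in female euploid and from 19.06 over 21.41 to 29.65 CPM in female Ts65Dn libraries. The groups overlapped, and the difference was -0.22 ± 0.086 (log2, SE, edgeR adjusted p = 0.213). It was called without Ts65Dn library B56, the highest of its group (-0.29, edgeR adjusted p = 0.042), and by DESeq2 with 1 and 3 RUVr factors (-0.21 in both, adjusted p = 0.0851 and 0.022), beside the same 16.6% and 25.5% of all genes. In Ts65Dn;Brwd1+/- vs. euploid 3 RUVr factors gave a call in males (-0.18, DESeq2 adjusted p = 0.0332) and in females (-0.17, adjusted p = 0.083), beside 7.85% and 20.9% of all genes. In males the Ts65Dn vs. euploid difference was -0.04 ± 0.092 and at E17.5 0.12 ± 0.210. Nfatc3 (Entrez gene 18021, chr8:106058818-106130537, sharing bases with Esrp2) differed by -0.14 ± 0.092 at E17.5, where 3 RUVr factors called it (DESeq2 adjusted p = 0.0773), -0.11 ± 0.086 in males and -0.09 ± 0.091 in females. Nfatc4 (Entrez gene 73181, chr14:55824795-55833943) had adult medians of 1.927 to 2.299 CPM, and its adult differences, -0.02 ± 0.185 in males and -0.06 ± 0.197 in females, carried the largest standard errors of the 10 genes. With intervals from -0.40 to 0.36 and from -0.46 to 0.35, moderate changes of Nfatc4 were not detectable given the spread between these libraries.

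The upstream and downstream genes of the pathway were followed in 5 lists. The first holds kinases, export factors and relatives of NFAT. Of its 10 genes edgeR called 1 higher in Ts65Dn vs. euploid at E17.5 and in males, and 1 higher and 1 lower in females, beside 1.35%, 0.795% and 3.17% of all genes. DESeq2 called 2 in each, adding Dyrk1b at E17.5 and the export factor Xpo1 in males (0.15, adjusted p = 0.0293), beside 3.58%, 1.48% and 6.12% of all genes. The gene that rose was Dyrk1a, a triplicated kinase that phosphorylates NFAT, by 0.52 ± 0.050 (log2, SE) at E17.5, 0.44 ± 0.092 in males and 0.59 ± 0.081 in females. The gene that fell in females was its untriplicated relative Dyrk1b. Dyrk1b ran from 39.5 over 45.41 to 50.67 CPM in female euploid and from 27.82 over 31.23 to 36.4 CPM in female Ts65Dn libraries, with no overlap. That held for 0.522% of 17427 genes between these groups. The Dyrk1b difference was -0.52 ± 0.068 (edgeR adjusted p = 7.10e-05), and its call was kept whichever library was left out.

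Dyrk1b was also called lower in Ts65Dn;Brwd1+/- vs. euploid, at -0.37 ± 0.068 in females and -0.31 ± 0.071 in males. The male call was lost when any 1 of 9 of the 16 libraries was left out. Without the libraries at odds Dyrk1b was called there at -0.37 (edgeR adjusted p = 0.00991). In Ts65Dn vs. euploid it differed by -0.21 ± 0.074 (edgeR adjusted p = 0.333) in males and -0.39 ± 0.120 (adjusted p = 0.177, and by DESeq2 0.0751) at E17.5. The difference between the sexes in this was not called (interaction -0.31 ± 0.101, edgeR adjusted p = 0.266), in a test where edgeR called 0% of all genes. There 1 of the 10 genes of this list had an unadjusted p under 0.05, beside 11.1% of all genes.

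Among 12 other substrates of calcineurin, edgeR called Synj1 alone. It encodes synaptojanin, a phosphatase of synaptic vesicle endocytosis, and it is triplicated. Its differences in Ts65Dn vs. euploid were 0.63 ± 0.084 (log2, SE) at E17.5, 0.47 ± 0.115 in males and 0.79 ± 0.122 in females. The male call was lost when any 1 of 11 of the 15 libraries was left out. It was kept without the libraries at odds (0.60, edgeR adjusted p = 2.19e-06). In females DESeq2 also called Amph (0.21, adjusted p = 0.0457) and Crtc2 (-0.27, adjusted p = 0.075), and it called Crtc2 between euploid females and males (0.26, adjusted p = 0.0528). Of 7 other subunits, anchors and inhibitors, 7 were tested within females and in the interactions with sex, and 6 in the other comparisons. In Ts65Dn vs. euploid edgeR called 1 of them. This was Chp1, a calcineurin B homologue that can inhibit calcineurin. In females it ran from 73.91 over 83.9 to 93.41 CPM in euploid and from 88.23 over 98.45 to 108.1 CPM in Ts65Dn libraries, and it rose by 0.22 ± 0.047 (edgeR adjusted p = 0.0158). The male difference was -0.03 ± 0.052, and edgeR did not call the difference between the sexes (interaction 0.26 ± 0.070, edgeR adjusted p = 0.234), while DESeq2 did (0.26, adjusted p = 0.0694). Of 10 genes for calcium entry and calmodulin none was called in Ts65Dn vs. euploid by edgeR, and 0, 2 and 1 of them had an unadjusted p under 0.05 at E17.5, in males and in females. DESeq2 called 0, 0 and 1 of them.

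Of 12 immediate early genes, which calcium signals switch on in active neurons, 3 were called lower by edgeR and 12 had a negative difference in female Ts65Dn vs. euploid, at a median of -0.48 (log2) beside -0.02 over all genes, of which 3.17% were called. DESeq2 called 7 of the 12 (Arc, Egr1, Egr2, Egr4, Fos, Fosb and Nr4a1), beside 6.12% of all genes. Fos ran from 10.21 over 21.18 to 49.2 CPM in euploid and from 9.729 over 12.95 to 13.82 CPM in Ts65Dn libraries, a difference of -0.94 ± 0.231 (edgeR adjusted p = 0.0366). Its highest euploid library was B85, and without the libraries at odds the value was -0.70 (adjusted p = 0.0585). Fosb (-0.44 ± 0.129) and Egr4 (-0.33 ± 0.090) were also called, but lost the call without those libraries (edgeR adjusted p = 0.193 and 0.135), and each lost it when any 1 of 10 of the 16 libraries was left out. In female Ts65Dn;Brwd1+/- vs. Ts65Dn, which shares the Ts65Dn libraries, 12 of 12 had a positive difference and an unadjusted p under 0.05, at a median of 0.58, beside 3.52% of all genes at that level. Of these 12 edgeR called 0 and DESeq2 called 5 (Arc, Egr4, Fos, Junb and Dusp1), beside 0.0817% of all genes. In males the median in Ts65Dn vs. euploid was 0.10 with 0 called by edgeR or DESeq2 and 0 at an unadjusted p under 0.05. The interaction with sex called 0 of 12 genes by edgeR or DESeq2, with 5 at an unadjusted p under 0.05, beside 11.1% of all genes. The list also shifted together elsewhere, with none called by edgeR. In female vs. male euploid 11 of 12 were higher (median 0.37), and in Ts65Dn;Brwd1+/- vs. euploid 12 in females (0.15) and 11 in males (0.20). In male Ts65Dn;Brwd1+/- vs. Ts65Dn 11 were higher (0.14). At E17.5 10 of 11 tested were lower in Ts65Dn (-0.19), and 10 of 12 in female vs. male Ts65Dn (-0.22).

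Relations of the 10 genes with each other and with marker lists were tested over the 47 adult libraries with group means removed, 39 in all, by permutation within groups. Of these, 14 had an adjusted p under 0.1, and 9 had one without the 6 libraries at odds. Of the 14, 5 were with choroid plexus markers (Ppp3ca, Ppp3cb, Ppp3r1, Nfatc1 and Nfatc3), which are given within the low and the high libraries only. The calcineurin subunits were lower where endothelial markers were higher, with r = -0.42 for Ppp3ca, -0.51 for Ppp3cb and -0.48 for Ppp3r1 (rho = -0.39, -0.49 and -0.43; permutation p = 0.00874, 0.00114 and 0.0025; adjusted p = 0.0344, 0.0163 and 0.0163), and r = -0.40, -0.51 and -0.51 without the 2 farthest libraries. Without the 6 libraries at odds r was -0.42, -0.42 and -0.47. With choroid plexus markers, r within the low and the high libraries was 0.26 and -0.35 for Ppp3ca, -0.07 and -0.41 for Ppp3cb, and 0.02 and -0.38 for Ppp3r1. For Nfatc3 it was 0.38 and 0.05. The 23 libraries with little choroid plexus RNA and the 24 with more thus gave different values. The part of these cells in the subunits' levels was not tested.

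Nfatc4 also followed the endothelial markers, at r = 0.51 (rho = 0.57, permutation p = 0.00073 and 0.0001, adjusted p = 0.0163) and at 0.56 without the 2 farthest libraries. Nfatc3 passed with these markers as well (r = 0.34, rho = 0.38, permutation adjusted p = 0.0869), but not without the libraries at odds (r = 0.33, adjusted p = 0.162). Rcan3 followed the immediate early genes, at r = 0.37 (rho = 0.39, permutation p = 0.00882 and 0.0087, adjusted p = 0.0344; r = 0.31 without the 2 farthest libraries), and without the libraries at odds r was 0.31 (adjusted p = 0.156). The relations of Rcan1 with Nfatc1 and with Nfatc3 were also among the 14 that passed over the 47 libraries. Because 4 libraries without trisomic dosage set Rcan1 apart in their groups, its values are given only over the 41 other libraries without conflict between label and data. There Rcan1 and Nfatc1 gave r = -0.19 (rho = -0.13, permutation p = 0.211 and 0.436, adjusted p = 0.393; r = -0.27 without the 2 farthest), and no relation of Rcan1 passed.

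The genes whose pattern was most like that of Rcan1 over the 47 adult libraries, by Pearson's r with group means removed, were Tmem50b (r = 0.83), Ifngr2 (0.82), Gtf2h5 (0.81), Sft2d1 (0.81) and Gart (0.80). All 5 are triplicated. Without the 6 libraries at odds their r fell to 0.35, 0.16, 0.32, 0.42 and 0.20. The leading genes without those libraries, chosen after their values were seen, were Fndc5 (r = 0.72), Cck (0.68), Rara (0.68), Pantr1 (0.67) and Calm3 (0.67), and none of them is triplicated. Over the 15 embryonic libraries the r of these 5 with Rcan1 was 0.73, -0.46, 0.60, -0.59 and 0.83.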

How the data were processed

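Libraries were made with an unstranded poly(A) kit (TruSeq RNA v2), and reads of 2 flow cells were joined. Per the labels, the authors aligned with HISAT2 2.1.0 and counted with featureCounts 2.0.1. The labels name both mm10 and mm9, and the study's methods name mm10 and Ensembl genes, while the rows carry Entrez identifiers. The authors deposited unnormalized counts per gene, 1 table for each tissue, and these were used as deposited. Symbols and positions came from RefSeq on GRCm38.p6, which matched 25275 of 27179 genes. Genes were taken as triplicated (198 in the tables) when distal to Mrpl39, itself included, on chromosome 16 or proximal to Pde10a, itself included, on chromosome 17.

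Counts were tested with edgeR 4.0.16 (R 4.3.3), with TMM normalization, its filter on low counts and the robust quasi-likelihood test, with Benjamini-Hochberg adjustment over all tested genes and a threshold of 0.1. Each tissue and sex was fitted with its own genotype groups, and interactions over all 6 adult groups. SE is the fold change divided by the square root of F. DESeq2 1.42.0, alone or with 1 or 3 RUVr factors, was an alternative, beside upper-quartile normalization, no filter, a threshold of 0.05, leaving out each library, and leaving out the libraries at odds with their labels. Exact and random permutations used scipy 1.17.1, with 100000 resamples for relations. The tests were checked on simulated counts. Depth limits precision, and intervals on fold changes come from the spread between libraries.

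The genes and lists were chosen with earlier results of these data known. Beside the 10 genes, the text names list genes with an adjusted p under 0.1 (at most 5 a list and comparison), the 5 tested neighbours of Rcan1 on each side and the 5 genes most correlated with it. No 2 libraries of a group agreed within sampling noise (lowest chi-square per degree of freedom 9.05). The values of 1 list gene are not reported here.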

Additional observations from a re-analysis of the deposited data

Results flagged for a closer look

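Within-group gaps were screened over 80 combinations of gene and group with Dixon's ratio, the gap between the extreme library and its nearest neighbour divided by the range of the group, against the 95% limits of 0.568 (7 libraries) and 0.526 (8 libraries). Chance passes this limit in about 1 of 20 groups, and 8 of 80 passed.

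For Rcan1, the lowest female Ts65Dn;Brwd1+/- library, B136, stood apart at a ratio of 0.671 (55.89 CPM, the next 80.75), and the lowest male Ts65Dn library, B145, at 0.738 (64.55 CPM, the next 84.97). Both lack trisomic dosage in the other triplicated genes. For Nfatc1, the highest female euploid library, B85, stood apart at 0.665 (15.23 CPM, the next 9.789), and for Ppp3cb the lowest male Ts65Dn library, B88, at 0.625 (345.2 CPM, the next 408.3). Both carry the sex-linked expression of the other sex.

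The remaining gaps fell in libraries with no conflict between label and data. The highest Rcan2 value in male Ts65Dn;Brwd1+/- was B94 (0.537; 153.9 CPM, the next 134.2), and the highest Nfatc2 value in female Ts65Dn was B56 (0.627; 29.65 CPM, the next 22.47). The E17.5 Ts65Dn embryo numbered 7 was lowest in Ppp3cb (0.672; 295.4 CPM, the next 342.0) and highest in Nfatc4 (0.572; 24.18 CPM, the next 19.67).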

How the results depend on the processing

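The Rcan1 difference in Ts65Dn vs. euploid kept its direction and its call at E17.5 and in both adult sexes under each alternative run. In male Ts65Dn;Brwd1+/- vs. euploid its 0.4168 (adjusted p = 0.0581) missed a threshold of 0.05, which left 0 of the 10 genes called, and leaving out each library gave 0.3779 to 0.4766 and 0 to 1 gene called; the call was lost without male euploid B79, B110 or B139 or Ts65Dn;Brwd1+/- B26, B51, B69, B94 or B137. The replicate block (embryo numbers as pairs) gave 0.67 for Rcan1 at E17.5 (edgeR adjusted p = 0.00402); the numbers do not pair the embryos (same-number r from -0.13 to 0.23, over 0.1 in 3 of 7 pairs, best with its own number in 1). Every embryo also carries a second title number, which embryos of both genotypes share. With this number as a block, Rcan1 differed by 0.69 and was the 1 of the 10 genes called. The near-zero Rcan1 values changed sign without the libraries at odds: -0.0213 for the interaction of sex with Ts65Dn vs. euploid, 0.0213 for female vs. male euploid and -0.0081 for female vs. male Ts65Dn. Leaving out each library gave -0.0456 to 0.0244 for female vs. male euploid and -0.0207 to 0.1161 for the interaction of sex with Ts65Dn;Brwd1+/- vs. Ts65Dn. Relative to the other triplicated genes, Rcan1 in male Ts65Dn;Brwd1+/- vs. Ts65Dn ranged from -0.1175 to -0.0819 over libraries left out. DESeq2 with 1 and 3 RUVr factors called more of the 10 genes: 3 and 5 at E17.5, 2 and 2 in male and 4 and 4 in female Ts65Dn vs. euploid, 1 and 1 in male Ts65Dn;Brwd1+/- vs. Ts65Dn, 2 and 3 in male and 2 and 4 in female Ts65Dn;Brwd1+/- vs. euploid, 2 and 3 in female vs. male euploid, and 3 (3 factors) in female vs. male Ts65Dn. Under them 13.5% and 24.8% of all genes were called at E17.5, 3.57% and 7.1% in male and 16.6% and 25.5% in female Ts65Dn vs. euploid, 2.85% and 5.89% in male Ts65Dn;Brwd1+/- vs. Ts65Dn, 4.17% and 7.85% in male and 12.5% and 20.9% in female Ts65Dn;Brwd1+/- vs. euploid, 20.3% and 27.5% in female vs. male euploid, and 3.84% (3 factors) in female vs. male Ts65Dn. Without the libraries at odds 2 genes were called in male Ts65Dn vs. euploid and 2 in male Ts65Dn;Brwd1+/- vs. euploid, beside 1.54% and 1.83% of all genes, and 9 relations passed. One fit over all 6 adult groups called 2 in female Ts65Dn vs. euploid, beside 6.95% of all genes. DESeq2, beside 8.45% of all genes, and upper-quartile normalization each called 1 in female vs. male euploid. Leaving out each library gave 1 to 2 called in male (2 without B88) and in female Ts65Dn vs. euploid (2 without B56), and 0 to 1 in female vs. male euploid (1 without B125). Shares of all genes called are not given here for single libraries left out, upper-quartile normalization, the threshold of 0.05 or the blocks. Counts of the 10 genes under those settings therefore lack a background. Of 99 uncalled values of the 10 genes, 40 changed sign somewhere, in 170 of 2475 refits, and 39 refits were called. Among list genes and neighbours, calls lost without 1 library in most refits were those of Synj1, Setd4, Cbr1 and Dyrk1b in males, of Fosb and Egr4 in females, of Slc5a3 at E17.5 and of Chp1 between the euploid sexes. Without the libraries at odds these male calls were kept, while those of Fosb, Egr4 and Chp1 were lost. The cause was not tested. Nfatc4 had the fewest counted reads of the 10 genes in adults, 47 to 471 a library.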

Other observations

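In euploid animals, female vs. male hippocampus gave a lower level of Chp1, by -0.20 ± 0.057 (log2, SE, edgeR adjusted p = 0.0816). The call was lost when any 1 of 12 of the 16 libraries was left out (male B79, B80, B84, B95, B110, B122 or B139, or female B12, B17, B21, B65 or B85, the last with the sex-linked expression of the other sex). In female Ts65Dn;Brwd1+/- vs. euploid hippocampus Chp1 was higher by 0.22 ± 0.047 (edgeR adjusted p = 0.0288), Dyrk1a by 0.48 ± 0.081 and Synj1 by 0.65 ± 0.121. In males the last was 0.45 ± 0.112 (edgeR adjusted p = 0.0934), and the call was lost when any 1 of 14 of the 16 libraries was left out. Without the libraries at odds the male Synj1 difference was 0.57 (edgeR adjusted p = 2.08e-06).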
